A study of Mus musculus with 16 samples.

Results

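The genes described here are the calcium pumps of the sarcoplasmic reticulum and the small membrane proteins that hold them back: Atp2a1, Atp2a2, Atp2a3, Sln and Pln. They were chosen by symbol, through the Ensembl identifiers of the count table, and are 5 of its 29730 genes. RNA of the tibialis anterior, a mostly fast-twitch muscle of the lower leg, was sequenced from male C57BL/6N mice aged 7 weeks. The series asked what lowering Dnm2, which encodes the GTPase dynamin 2, does in a mouse model of recessive centronuclear myopathy that lacks Bin1, which encodes the membrane-shaping protein amphiphysin 2. The 16 samples form 4 groups of 4: wild-type (WT) given phosphate-buffered saline (WT_PBS), wild-type given the antisense oligonucleotide ASO1 (WT_ASO), Bin1mck-/- given saline (KO_PBS) and Bin1mck-/- given ASO1 (KO_ASO). The sources used here do not state the deleted part of Bin1, the meaning of "mck" in the genotype, the dose or the schedule.

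A muscle fibre contracts when calcium leaves the sarcoplasmic reticulum and relaxes when SERCA pumps return it, at the cost of ATP. Atp2a1 encodes SERCA1, the pump of fast-twitch fibres. Atp2a2 encodes SERCA2, which is the pump of heart and slow-twitch fibres and also has a form found in most cells, and Atp2a3 encodes SERCA3, known from endothelium, platelets and other non-muscle cells. Sarcolipin (Sln) and phospholamban (Pln) are single-pass membrane peptides that bind the pumps. Phospholamban lowers the affinity of the pump for calcium until it is phosphorylated, and sarcolipin makes the pump spend ATP with less calcium moved. Myoregulin (Mrln) is a related inhibitor of skeletal muscle.

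The coding sequences of the regulators are printed because these proteins are small enough for the whole coding sequence to be shown. Each lies in 1 exon of the plus strand of GRCm38. The coding sequence of Sln spans chr9:53853473-53853568 and holds 31 codons before the stop, that of Pln spans chr10:53343864-53344022 with 52 codons, and that of Mrln spans chr10:70219496-70219636 with 46 codons. Capitals mark the start and the stop codon.
Sln: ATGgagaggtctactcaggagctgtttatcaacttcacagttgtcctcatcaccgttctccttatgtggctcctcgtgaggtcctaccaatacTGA
Pln: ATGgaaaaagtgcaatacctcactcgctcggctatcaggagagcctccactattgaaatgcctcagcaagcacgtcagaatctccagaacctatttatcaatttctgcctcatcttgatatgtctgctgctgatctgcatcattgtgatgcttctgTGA
Mrln: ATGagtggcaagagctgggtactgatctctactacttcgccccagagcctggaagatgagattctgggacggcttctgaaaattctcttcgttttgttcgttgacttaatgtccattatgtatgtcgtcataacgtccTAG

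Library totals ran from 27591900 to 40862854 counts. All 5 genes passed the filter on low counts, so all were tested among 14960 genes. Bin1 measured 494.7 ± 40.6 CPM in WT_PBS and 44.9 ± 3.27 CPM in KO_PBS (SD, n = 4 each), where CPM is the count per 1000000 counts of a library, with library sizes scaled by TMM, a trimmed mean of log ratios between libraries. Dnm2 measured 56.1 ± 5.51 CPM in WT_PBS and 62.8 ± 3.63 CPM in KO_PBS, against 25.6 ± 2.72 CPM in WT_ASO and 24.8 ± 4.48 CPM in KO_ASO (SD, n = 4 each). Both genes followed the labels in all 16 samples. Skeletal muscle genes (Ckm, Acta1, Des, Mb, Ttn and Neb) summed to between 76420 and 114170 CPM per sample.

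In the untreated knockout muscle, Sln rose 20.9-fold and Atp2a2 rose 1.70-fold, while Atp2a1, by far the most abundant pump, fell to 0.743 of its wild-type level. Atp2a3 and Pln did not pass the test. After ASO1, Sln fell 6.02-fold in the knockout muscle, and neither pump passed the test. KO_PBS vs WT_PBS called 3 of the 5 genes at an adjusted P value under 0.05, where 12.6% of all tested genes were called (edgeR). The same 3 genes did not overlap between the groups, as was so for 20.4% of all genes. KO_ASO vs KO_PBS called 1 of the 5, against 3.64% of all genes (edgeR). Sln was also the 1 gene of the 5 whose groups did not overlap in that comparison, against 10.4% of all genes. These comparisons share the KO_PBS samples, so their values are not independent of each other.

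**Figure D1:**
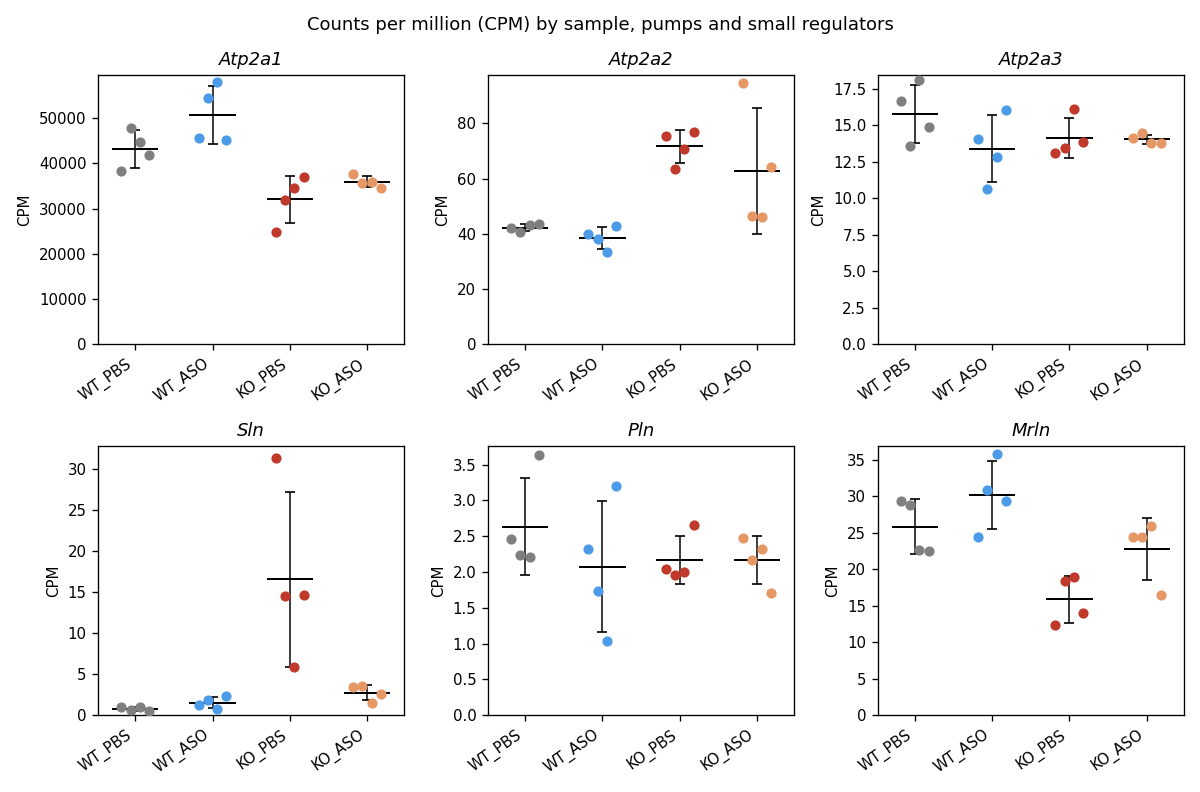
CPM of the 3 pumps, of Sln and Pln and of Mrln (y axis, from 0) in each sample of the 4 groups (x axis). Points are samples, the long bar is the group mean and the whiskers are 1 SD. Sln lies between 5.83 and 31.3 CPM in KO_PBS and at 3.48 CPM or less in the other groups, and the Atp2a2 samples of KO_PBS lie above all wild-type samples.

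Atp2a1 (ENSMUSG00000030730, chromosome 7, 126445858 to 126463108, minus strand, GRCm38, protein coding) took 4.19% of all counts in WT_PBS. Among all genes its mean CPM ranked 1 in both wild-type groups and 2 in both knockout groups. The WT_PBS samples, in the order of their replicate numbers, measured 38308, 47907, 44765 and 41753 CPM. The KO_PBS samples measured 24909, 32009, 34590 and 36921 CPM. All 4 knockout samples lay below the lowest wild-type sample, with replicate 1 lowest and replicate 4 close to the wild-type range. The difference was a log2 fold change (log2FC) of -0.43 ± 0.13 (SE), called with an adjusted P of 0.0372 (edgeR). With library totals alone as the scale, the log2FC was -0.27 and the adjusted P 0.115 (edgeR).

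The call for Atp2a1 depended on single samples. Without KO_PBS replicate 1 the log2FC was -0.32 with an adjusted P of 0.127 (edgeR). It also missed the threshold when WT_PBS replicate 2, 3 or 4, KO_PBS replicate 2 or KO_ASO replicate 2 or 3 was left out, with adjusted P values from 0.051 to 0.0998 (edgeR). After ASO1 the knockout samples measured 37617, 35564, 35884 and 34643 CPM. They overlapped those of KO_PBS, and the log2FC of KO_ASO vs KO_PBS was 0.16 ± 0.13 with an adjusted P of 0.567 (edgeR). Wild-type muscle given ASO1 measured 45548, 54473, 57945 and 45067 CPM, which overlapped WT_PBS (log2FC 0.23 ± 0.13, edgeR, adjusted P = 0.81). Rabep2 lies on the other strand and shares 763 exonic bases with Atp2a1, but had a mean of 183 counts where Atp2a1 had 1391910.

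Atp2a2 (ENSMUSG00000029467, chromosome 5, 122453513 to 122502225, minus strand, GRCm38, protein coding) was the second pump by level. It measured 42.1, 40.6, 43.0 and 43.5 CPM in WT_PBS and 75.6, 63.7, 70.6 and 76.9 CPM in KO_PBS. The 2 groups did not overlap, and the lowest knockout sample stood well above the highest wild-type sample. The log2FC was 0.76 ± 0.17, called with an adjusted P of 0.00924 (edgeR), and it kept its direction and its call under each of the 23 alternatives tried.

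After ASO1 the knockout samples of Atp2a2 spread widely, at 94.6, 46.3, 46.1 and 64.1 CPM. Replicate 1 was the highest of all 16 samples, whereas replicates 2 and 3 lay just above the wild-type range. The log2FC of KO_ASO vs KO_PBS was -0.19 ± 0.17 and did not pass the test (edgeR, adjusted P = 0.637). Without KO_ASO replicate 1 it was -0.46 with an adjusted P of 0.069 (edgeR), and the group mean went from 62.8 ± 22.8 CPM (SD, n = 4) to 52.2 ± 10.3 CPM (SD, n = 3). In wild-type muscle ASO1 left Atp2a2 at 39.8, 38.1, 33.5 and 43.0 CPM, overlapping WT_PBS, with a log2FC of -0.13 ± 0.17 (edgeR, adjusted P = 0.947).

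Genes of slow-twitch fibres were read beside Atp2a2, since SERCA2 is the slow-fibre pump. Of the 10 genes of that list 1 was called in KO_PBS vs WT_PBS, a share below the 12.6% of all genes. The fitted log2FC was above 0 for 8 genes and below 0 for 2, with a median of 0.98, where the median of all tested genes was -0.01. The called gene was Tnni1, slow skeletal troponin I, at 3.60, 1.30, 3.76 and 3.18 CPM in WT_PBS and 45.3, 20.9, 12.2 and 24.6 CPM in KO_PBS (log2FC 3.10 ± 0.59, edgeR, adjusted P = 0.00414). Tnnt1, slow skeletal troponin T, had a log2FC of 2.02 ± 0.65 and did not pass (edgeR, adjusted P = 0.0564). Myh7, the slow myosin heavy chain, had a log2FC of 1.33 ± 1.14 (edgeR, adjusted P = 0.498). The 2 genes below 0 were the slow myosin light chain gene Myl3, at 120.6 ± 59.9 CPM in WT_PBS and 88.3 ± 51.1 CPM in KO_PBS (SD, n = 4 each; log2FC -0.45 ± 0.52, edgeR, adjusted P = 0.627), and Myh7b (-0.29 ± 0.41, edgeR, adjusted P = 0.707).

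KO_ASO replicate 1, where Atp2a2 was highest, also had the highest Myh7, at 109 CPM against 2.18 to 4.99 CPM in the rest of its group. The slow-fibre list summed to 992.7 CPM in that sample and to between 359.8 and 441.9 CPM in the other KO_ASO samples. Its part in the Atp2a2 values was not tested. Myh7 was chosen here after its values were seen.

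**Figure D2:**
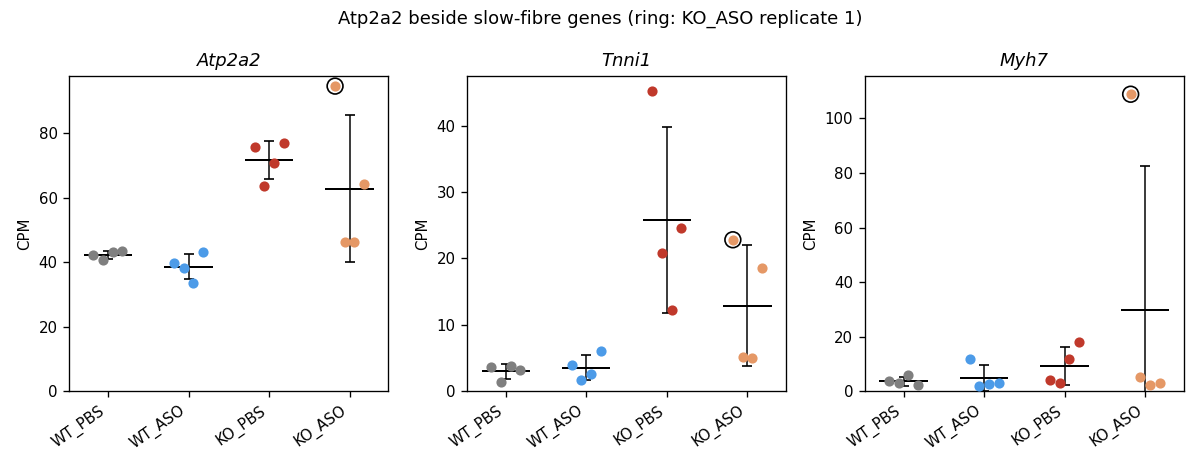
CPM (y axis, from 0) of Atp2a2 and of the slow-fibre genes Tnni1 and Myh7 in each sample of the 4 groups (x axis), with group means as bars, 1 SD as whiskers and a ring around KO_ASO replicate 1. The ringed sample is the highest of all 16 for Atp2a2 (94.6 CPM) and Myh7 (109 CPM), while Tnni1 is highest in KO_PBS replicate 1 (45.3 CPM).

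Atp2a3 (ENSMUSG00000020788, chromosome 11, 72961169 to 72993044, plus strand, GRCm38, protein coding) was the least abundant pump. Its group means were 15.8 ± 1.99 CPM in WT_PBS, 13.4 ± 2.29 in WT_ASO, 14.1 ± 1.36 in KO_PBS and 14.0 ± 0.330 in KO_ASO (SD, n = 4 each). The 4 groups overlapped, and the log2FC of KO_PBS vs WT_PBS was -0.16 ± 0.12 (edgeR, adjusted P = 0.403). The difference between KO_ASO and KO_PBS was -0.01 ± 0.12 on the log2 scale (edgeR, adjusted P = 0.982).

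Markers of the cells that SERCA3 is known from were checked beside it. The 6 endothelial genes had a median log2FC of -0.17 in KO_PBS vs WT_PBS and summed to 325.0 to 461.5 CPM in WT_PBS and 319.6 to 427.3 CPM in KO_PBS. The 6 lymphocyte genes summed to at most 0.592 CPM in any sample. Of the 5 platelet genes only 2 were tested, and both were called in KO_PBS vs WT_PBS, where 12.6% of all tested genes were called. Pf4 rose (log2FC 2.195 ± 0.55, edgeR, adjusted P = 0.0168) and Itga2b rose (0.68 ± 0.18, edgeR, adjusted P = 0.0219). Gp1bb, Gp9 and Ppbp were not tested and had group means of at most 0.147 CPM.

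Sln (ENSMUSG00000042045, chromosome 9, 53850164 to 53854560, plus strand, GRCm38, protein coding) had counts of 34, 18, 38 and 20 in WT_PBS and of 1136, 511, 239 and 596 in KO_PBS. As CPM these were 0.994, 0.670, 0.986 and 0.501 in wild-type muscle and 31.3, 14.5, 5.83 and 14.7 in knockout muscle. The lowest knockout sample, replicate 3, was above every wild-type sample, and the knockout samples differed among themselves more than for any pump. The log2FC was 4.39 ± 0.50 with an adjusted P of 5.67e-05 (edgeR). It was the 17th highest log2FC of the 14960 genes tested and ranked 60 by P value. Leaving out 1 sample at a time gave log2FC values from 3.88 to 4.66, and the call held in each case.

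In KO_ASO, Sln counts were 125, 109, 43 and 74, or 3.39, 3.48, 1.49 and 2.58 CPM. Every one of these samples lay below the lowest KO_PBS sample, and the log2FC of KO_ASO vs KO_PBS was -2.59 ± 0.44 with an adjusted P of 0.00485 (edgeR). This was the 24th lowest log2FC of all genes tested, and the call held in each fit with 1 sample left out. Sln in KO_ASO was still above each WT_PBS sample. The log2FC of KO_ASO vs WT_PBS was 1.80 ± 0.49, which missed the threshold in edgeR with an adjusted P of 0.289 and passed it in DESeq2 with an adjusted P of 0.0143.

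Wild-type muscle given ASO1 had Sln counts of 37, 62, 25 and 84, or 1.21, 1.79, 0.759 and 2.33 CPM. These overlapped WT_PBS, with a log2FC of 0.96 ± 0.51 that did not pass the test (edgeR, adjusted P = 0.803). The effect of ASO1 on Sln was compared between genotypes with the interaction term, the log2FC of KO_ASO vs KO_PBS minus that of WT_ASO vs WT_PBS. It was -3.55 ± 0.67 with an adjusted P of 0.0314, a call that 0.575% of all genes shared (edgeR). The interaction was lost without a filter on low counts (edgeR, adjusted P = 0.09), in limma-voom (adjusted P = 0.153) and when any of 8 samples was left out (edgeR, adjusted P from 0.0513 to 0.0896), namely WT_PBS replicate 1, 2 or 4, WT_ASO replicate 1 or 4, KO_PBS replicate 2 and KO_ASO replicate 1 or 3. For the 3 pumps and Pln the interaction ran from -0.07 to 0.35 on the log2 scale and did not pass (edgeR).

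Markers of macrophages moved in the same comparisons as Sln. All 6 rose in KO_PBS vs WT_PBS, with a median log2FC of 1.72, and 4 of 6 fell in KO_ASO vs KO_PBS, where 12.6% and 3.64% of all genes were called. They summed to 34.99 to 57.5 CPM in WT_PBS, 89.7 to 277.7 CPM in KO_PBS and 37.0 to 52.7 CPM in KO_ASO. The macrophage sum was highest in KO_PBS replicate 4, while Sln was highest in KO_PBS replicate 1, where the macrophage sum was 147.7 CPM. Their part in the Sln result was not tested. In RNA of whole muscle, fewer cells of a type and less RNA per cell cannot be told apart.

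Pln (ENSMUSG00000038583, chromosome 10, 53337667 to 53345987, plus strand, GRCm38, protein coding) was counted 34 to 145 times per sample. It measured 2.46, 2.23, 2.205 and 3.64 CPM in WT_PBS and 2.04, 1.95, 1.999 and 2.66 CPM in KO_PBS. The groups overlapped, and the log2FC was -0.29 ± 0.27 (edgeR, adjusted P = 0.533). In KO_ASO it was 2.47, 2.17, 2.32 and 1.71 CPM, which gave a log2FC of 0.00 ± 0.27 against KO_PBS (edgeR, adjusted P = 0.997). In WT_ASO the samples measured 2.32, 1.74, 1.03 and 3.20 CPM (log2FC against WT_PBS -0.35 ± 0.27, edgeR, adjusted P = 0.875). Cep85l on the other strand shares 141 exonic bases with Pln and had a mean of 3488 counts where Pln had 78.9, and Gm47644 shares 1644 bases and had 20.8. Whether the counting used the strand is not given in the sources used here, so part of the Pln counts may belong to these genes.

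**Figure D3:**
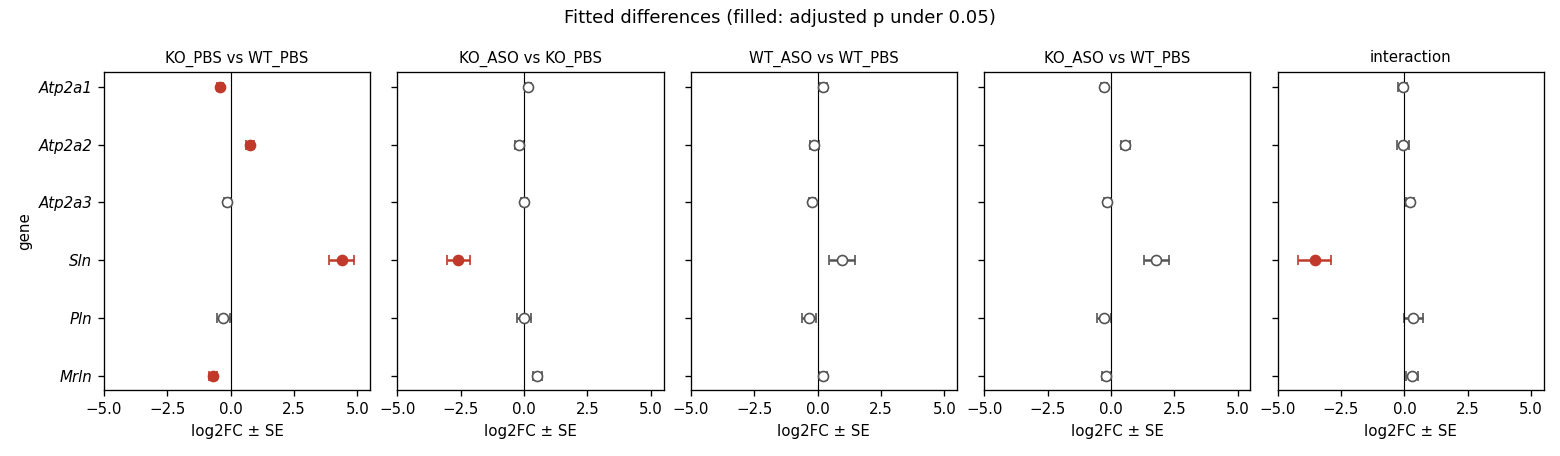
Fitted log2FC (x axis) with 1 SE of the 3 pumps, Sln, Pln and Mrln (y axis) in 4 comparisons and in the genotype by ASO1 interaction. KO_ASO vs WT_ASO is not shown. Filled points were called at an adjusted P under 0.05 in edgeR. Sln has the largest shift of the 6 genes in each panel, at 4.39 in KO_PBS vs WT_PBS and -2.59 in KO_ASO vs KO_PBS, and the pumps stay between -0.43 and 0.76.

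Mrln fell in KO_PBS vs WT_PBS, where Sln rose. Its mean level per length was above those of Sln and Pln in all 4 groups, although in KO_PBS, at 13.4 ± 2.75 CPM per kilobase (SD, n = 4), its range overlapped that of Sln. It measured 29.4, 28.8, 22.6 and 22.4 CPM in WT_PBS and 12.3, 18.3, 18.9 and 13.9 CPM in KO_PBS. The groups did not overlap, and Mrln fell by 0.70 ± 0.17 on the log2 scale (edgeR, adjusted P = 0.0119). In KO_ASO it was 24.4, 24.4, 25.9 and 16.4 CPM. Of these samples 3 lay above all KO_PBS samples, and the log2FC of 0.52 ± 0.17 did not pass the test (edgeR, adjusted P = 0.0968).

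Among the other micropeptides of the pump, 1810037I17Rik, which encodes another-regulin, measured between 9.38 and 13.9 CPM over the 16 samples with a log2FC of 0.08 ± 0.13 in KO_PBS vs WT_PBS (edgeR, adjusted P = 0.766). Strit1, which encodes the pump activator DWORF, had at most 5 counts in a sample, and Smim6, which encodes endoregulin, at most 3, so neither was tested.

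The effect of ASO1 in wild-type muscle was read from WT_ASO vs WT_PBS, which called 0 of the 5 genes in edgeR, DESeq2 and limma-voom, and 0 had an unadjusted P under 0.05 in edgeR, where 0.00668% of all genes were called (edgeR). KO_ASO vs WT_PBS sets the treated knockout against untreated wild-type muscle. It called 0 of the 5 in edgeR, where 0.0401% of all genes were called, with 2 at an unadjusted P under 0.05 (edgeR). DESeq2 called 1 of the 5 and 95 of all 14960 genes, and limma-voom called 0 of the 5. In that comparison Atp2a1 lay lower, and Atp2a2 and Sln higher, without overlap between the groups, as did 5.39% of all genes in either direction. The Atp2a2 log2FC was 0.57 ± 0.17 (edgeR, adjusted P = 0.371), or 0.30 without KO_ASO replicate 1 (edgeR, adjusted P = 0.483), and that of Atp2a1 was -0.27 ± 0.13 (edgeR, adjusted P = 0.613).

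KO_ASO vs WT_ASO compares the genotypes under ASO1. It called 0 of the 5 in edgeR, where 0.0735% of all genes were called, with 2 at an unadjusted P under 0.05 (edgeR). DESeq2 called 2 of the 5 and 419 of all 14960 genes, and limma-voom called 0 of the 5. Atp2a2 had a log2FC of 0.70 ± 0.17 (edgeR, adjusted P = 0.107; DESeq2, adjusted P = 0.0108) and Atp2a1 of -0.50 ± 0.13 (edgeR, adjusted P = 0.109; DESeq2, adjusted P = 0.00567), and for both the groups did not overlap, as for 6.97% of all genes. Without KO_ASO replicate 1 the Atp2a2 value was 0.43 (edgeR, adjusted P = 0.116). Sln had a log2FC of 0.84 ± 0.46 with overlapping groups (edgeR, adjusted P = 0.406).

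Levels of different genes were compared per length, as CPM per kilobase of exon. In WT_PBS the order was Atp2a1 at 12419.7 ± 1181.5, Atp2a2 at 6.95 ± 0.211, Atp2a3 at 2.995 ± 0.376, Pln at 0.954 ± 0.246 and Sln at 0.598 ± 0.185 CPM per kilobase (SD, n = 4 each), and the ranges of neighbours did not overlap. In KO_PBS Sln moved from the last to the second place, at 12.6 ± 8.09 CPM per kilobase, with a range that overlapped Atp2a2 at 11.8 ± 0.986 (SD, n = 4 each). This place rested on KO_PBS replicate 1, at 23.8 CPM per kilobase against 4.42 to 11.2 in the rest of its group. Sln lay above Atp2a2 in replicates 1 and 2 and below it in replicates 3 and 4. In KO_ASO Sln was at 2.08 ± 0.703 CPM per kilobase, between Atp2a3 at 2.66 ± 0.0625, whose range it overlapped, and Pln at 0.786 ± 0.120 (SD, n = 4 each). In WT_ASO Sln at 1.16 ± 0.521 and Pln at 0.751 ± 0.332 CPM per kilobase overlapped (SD, n = 4 each).

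**Figure D4:**
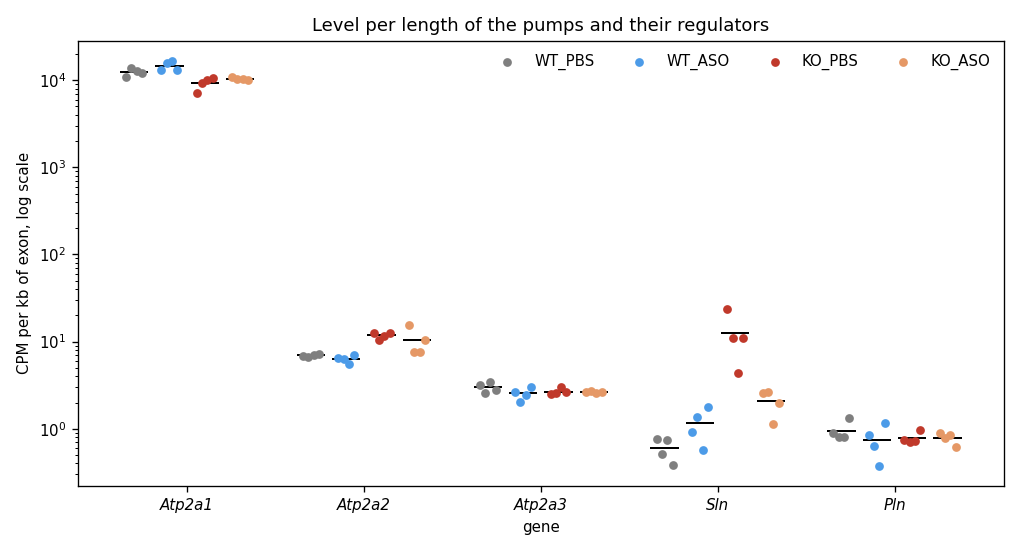
CPM per kilobase of exon on a log scale (y axis) of the 3 pumps, Sln and Pln (x axis), with 1 point per sample coloured by group and a bar at each group mean. Atp2a1 lies between 7164 and 16665 CPM per kilobase and the other 4 genes at 23.8 or less, and Sln has the widest spread between groups.

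Ratios between these levels describe the balance of the transcripts, with no test since each gene was tested on its own. The share of Atp2a2 in the summed level of the 3 pumps per length was 0.0564% ± 0.00624 in WT_PBS, 0.0444% ± 0.00971 in WT_ASO, 0.131% ± 0.0285 in KO_PBS and 0.0992% ± 0.0331 in KO_ASO (SD, n = 4 each). For each 1000 units of Atp2a1 per length there were 0.0488 ± 0.0174 units of Sln in WT_PBS, 0.0821 ± 0.0424 in WT_ASO, 1.501 ± 1.253 in KO_PBS and 0.201 ± 0.0660 in KO_ASO (SD, n = 4 each). Without KO_PBS replicate 1 the KO_PBS value was 0.896. The level of Pln was 13.7% ± 3.24 of that of Atp2a2 in WT_PBS and 6.65% ± 0.740 in KO_PBS (SD, n = 4 each), as Atp2a2 rose and Pln did not pass the test.

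The genes that store and release the calcium the pumps take up were read as a list of 22. In KO_PBS vs WT_PBS 2 of them fell and 20 did not pass, a share below the 12.6% of all genes called. The fitted log2FC was above 0 for 8 genes and below 0 for 14, with a median of -0.17. The fallen genes were Jph1 (-0.67 ± 0.15, edgeR, adjusted P = 0.0082) and Jph2 (-0.53 ± 0.15, edgeR, adjusted P = 0.0261), junctophilins that tether the reticulum to the transverse tubule. Cacng1, a subunit of the voltage-gated calcium channel, measured 185.9 ± 35.7 CPM in WT_PBS and 258.8 ± 22.4 CPM in KO_PBS (SD, n = 4 each; log2FC 0.48 ± 0.15, edgeR, adjusted P = 0.0505), and Casq1, the calcium-binding protein of the store, had a log2FC of -0.52 ± 0.18 (edgeR, adjusted P = 0.0697). In KO_ASO vs KO_PBS Jph1 had a log2FC of 0.53 ± 0.15 and did not pass (edgeR, adjusted P = 0.0577).

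Calcium buffers and the kinases and phosphatases that act on the pump regulators formed a list of 13, of which 3 fell and 1 rose in KO_PBS vs WT_PBS, where 12.6% of all genes were called. Calm3 (-0.84 ± 0.14, edgeR, adjusted P = 0.00107) encodes calmodulin, and Camk2a (-0.89 ± 0.16, edgeR, adjusted P = 0.00224) encodes a calmodulin-dependent kinase. Pvalb, the buffer of fast fibres, fell from 9806 ± 2100 CPM to 5916 ± 1656 CPM (SD, n = 4 each; log2FC -0.73 ± 0.21, edgeR, adjusted P = 0.0327), and was chosen after its values were seen. Camk2d, the kinase isoform known from heart, rose by 0.91 ± 0.14 on the log2 scale (edgeR, adjusted P = 0.000677). In KO_ASO vs KO_PBS Camk2d fell by 0.64 ± 0.14 (edgeR, adjusted P = 0.0199) and Calm3 rose by 0.55 ± 0.14 (edgeR, adjusted P = 0.0396), and the other 11 did not pass, where 3.64% of all genes were called.

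**Figure D5:**
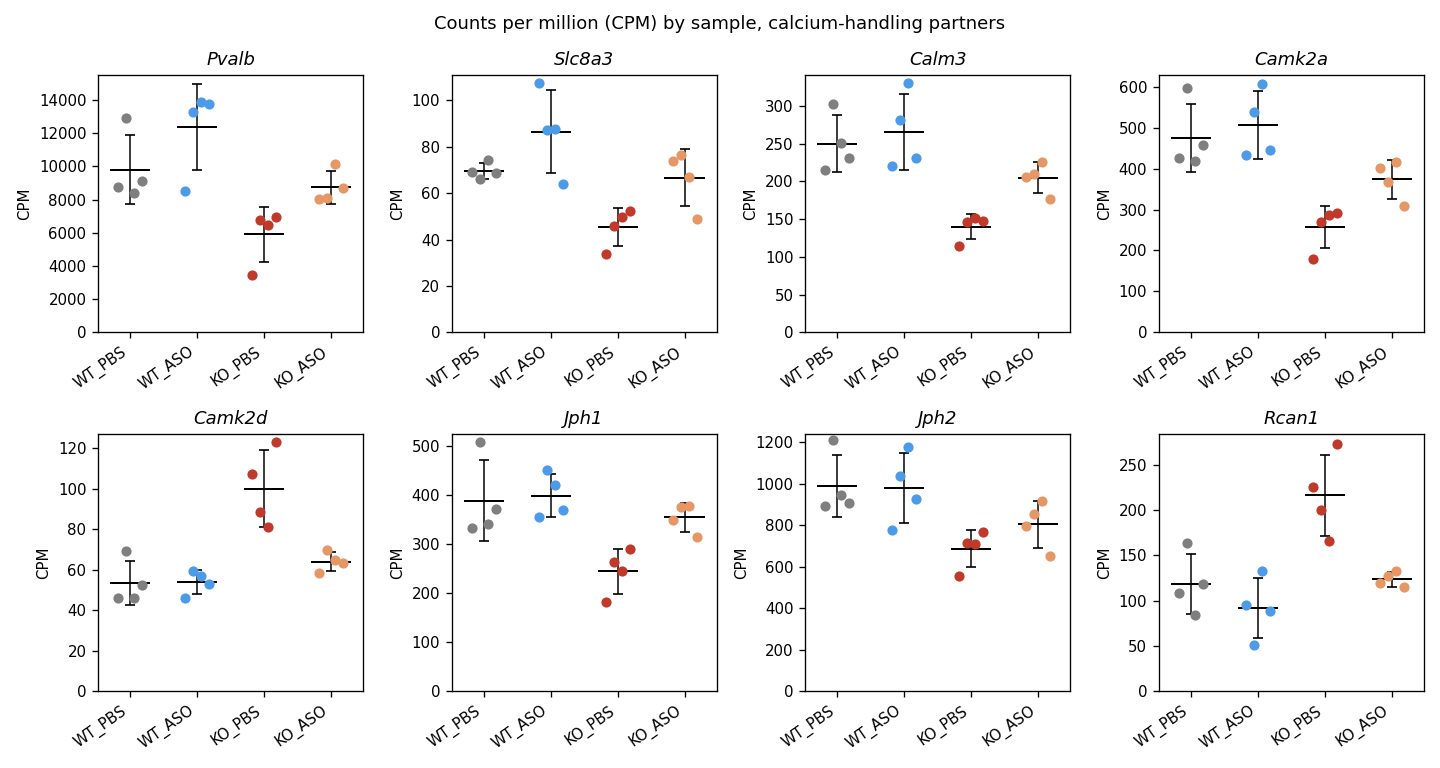
CPM (y axis, from 0) of 8 calcium-handling genes in each sample of the 4 groups (x axis), with the mean as a bar and 1 SD as whiskers. In KO_PBS the samples of Pvalb, Slc8a3, Calm3, Camk2a, Jph1 and Jph2 lie below all WT_PBS samples and those of Camk2d and Rcan1 above them. These 2 groups did not overlap for 20.4% of all genes.

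With 12.6% of all genes called, 2 of 8 genes for other calcium pumps and exchangers fell in KO_PBS vs WT_PBS: the exchanger Slc8a3 (-0.61 ± 0.16, edgeR, adjusted P = 0.0211) and the plasma membrane pump Atp2b3 (-0.46 ± 0.13, edgeR, adjusted P = 0.032). In KO_ASO vs KO_PBS 1 of these 8 was called, where 3.64% of all genes were called. This was Slc8b1, the mitochondrial exchanger, which fell by 0.38 ± 0.10 on the log2 scale (edgeR, adjusted P = 0.044), and the other 7 did not pass. Of 10 genes of calcineurin and NFAT signalling 2 were called in KO_PBS vs WT_PBS. In that comparison Rcan1, a calcineurin regulator that is itself a target of the pathway, rose by 0.87 ± 0.24 (edgeR, adjusted P = 0.0278) and Ppp3cb, a catalytic subunit, fell by 0.61 ± 0.18 (edgeR, adjusted P = 0.039), and the other 8 did not pass.

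Atp2a1 was set beside 12 genes of fast fibres. In KO_PBS vs WT_PBS 5 of the 12 fell, with a median log2FC of -0.40, against 12.6% of all genes called in either direction. The fitted log2FC was below 0 for 10 genes and above 0 for 2, the fast myosin heavy chain genes Myh1 (0.35 ± 0.18, edgeR, adjusted P = 0.237) and Myh2 (0.48 ± 0.74, edgeR, adjusted P = 0.727). The fallen genes were Mylk2, the myosin light chain kinase (-0.92 ± 0.21, edgeR, adjusted P = 0.00892), the tropomyosin gene Tpm1 (-0.61 ± 0.15, edgeR, adjusted P = 0.0138) and the fast troponin genes Tnnt3, Tnni2 and Tnnc2, between -0.40 and -0.37. In KO_ASO vs KO_PBS 2 of the 12 rose, where 3.64% of all genes were called: Mylk2 (0.91 ± 0.21, edgeR, adjusted P = 0.024) and Tpm1 (0.56 ± 0.15, edgeR, adjusted P = 0.0475). The other 10 did not pass. The list summed to 130483 to 159959 CPM in WT_PBS and to 97892 to 111247 CPM in KO_PBS.

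Sarcolipin is abundant in developing muscle, so 8 genes of developing and denervated muscle were read beside it. In KO_PBS vs WT_PBS 6 of the 8 rose: Ncam1 (2.26 ± 0.15, edgeR, adjusted P = 1.03e-07), Runx1 (2.30 ± 0.25, edgeR, adjusted P = 2.59e-05), Myog (2.70 ± 0.32, edgeR, adjusted P = 6.89e-05), Chrna1 (1.78 ± 0.22, edgeR, adjusted P = 8.27e-05), Chrng and Myh8, where 12.6% of all genes were called. Myh3, the embryonic myosin, had a log2FC of 0.29 ± 0.26 (edgeR, adjusted P = 0.518). Of the 8 fitted values in that comparison 7 were above 0 and 1 was below, that of Myod1, which did not pass. Myod1 measured 9.05 to 13.9 CPM in WT_PBS and 7.69 to 12.2 CPM in KO_PBS, so the groups overlapped. In KO_ASO vs KO_PBS 4 of the 8 fell: Ncam1 by 1.54, Runx1 by 1.49, Chrna1 by 0.95 and Myh8 by 0.93 on the log2 scale, where 3.64% of all genes were called. The fitted log2FC of the 3 genes Myod1 (1.15 ± 0.33, edgeR, adjusted P = 0.0692), Chrng (0.30 ± 0.44, edgeR, adjusted P = 0.799) and Myh3 (0.00 ± 0.26, edgeR, adjusted P = 0.996) was above 0 and did not pass. The sum of the list was 58.8 to 60.4 CPM in WT_PBS, 142.0 to 215.8 CPM in KO_PBS and 74.3 to 125.6 CPM in KO_ASO. Within KO_PBS the sum and Sln were both highest in replicate 1. The sum was lowest in replicate 2 (142.0 CPM), while Sln was lowest in replicate 3 (5.83 CPM). The part of these genes in the Sln result was not tested.

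Sln and Atp2a2 are also known from the heart. Of the 6 heart genes read, Myl4, an atrial and embryonic myosin light chain, rose in KO_PBS vs WT_PBS, where 12.6% of all genes were called (1.44 ± 0.26, edgeR, adjusted P = 0.00187). The 2 others that were tested, Myh6 (-0.51 ± 0.38, edgeR, adjusted P = 0.413) and Tnni3 (-0.09 ± 0.40, edgeR, adjusted P = 0.909), did not pass, and the median of the 3 was -0.09. The group means of Nppa, Nppb and Myl7 were at most 0.145 CPM. Of 5 fibroblast genes 2 rose in KO_PBS vs WT_PBS, Pdgfra (0.95 ± 0.26, edgeR, adjusted P = 0.0272) and Dcn (0.58 ± 0.17, edgeR, adjusted P = 0.0343), and the list summed to 744.9 to 1013 CPM in WT_PBS and 1001 to 1727 CPM in KO_PBS. Of 5 smooth muscle genes, 3 with a log2FC below 0 and 2 above, 2 fell in that comparison, Myh11 (-0.45 ± 0.12, edgeR, adjusted P = 0.0243) and Tagln (-0.49 ± 0.13, edgeR, adjusted P = 0.0258). Medians over the tested genes were 0.25 for red blood cells, 0.23 for Schwann cells and 1.46 for fat, which had a summed level of 1.65 to 67.2 CPM in KO_PBS. The part of these cells in the values of the pumps and regulators was not tested.

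The genes whose log2 CPM followed each member most closely over the 16 samples are given as a description, since all values come from the same libraries. Sln was followed by Fam171b (Pearson r = 0.955), Ppfibp1 (0.954) and Pon2 (0.948). Atp2a2 was followed by Tnni1 (0.911), Hspb7, a small heat shock protein of heart and muscle (0.871), and Gm28800 (0.865). Atp2a1 was followed by Anapc5 (0.971), Ccdc91 (0.962) and Elp3 (0.960). For Atp2a3 these were Aqp7 (0.838), S1pr3 (0.83) and Fli1 (0.823), and for Pln Hoxa2 (0.842), Ebf2 (0.803) and Gm4076 (0.803). With group means removed, r was 0.727 for Sln with Fam171b and 0.735 for Atp2a2 with Tnni1, lower than over all samples. For Atp2a3 with Aqp7 it was 0.824, little changed. For Pln it was slightly higher than over all samples, at 0.877 with Hoxa2, 0.808 with Ebf2 and 0.804 with Gm4076.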

How the data were processed

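Unnormalised counts per gene were deposited by the authors for all 16 samples. Per the labels, TRI Reagent served to extract the RNA and the TruSeq Stranded mRNA kit to make the libraries. The submitters' processing notes list STAR 2.5.3a, HTSeq 0.6.1p1, Bowtie2 2.2.8, cutadapt 1.10 and GRCm38, without their roles. The annotation release and the strand setting were not given in the sources used here.

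Symbols, positions and lengths (the union of exons) came from GENCODE M21 (GRCm38), which matched all 29730 identifiers. Counts were tested with edgeR 4.0.16 under R 4.3.3: filterByExpr by group left 14960 genes, TMM scaled the libraries, and the 4 groups of 16 samples entered 1 robust quasi-likelihood fit (common biological coefficient of variation 18.7%). P values were adjusted by Benjamini-Hochberg over all tested genes, and genes were called under 0.05. The SE is the log2FC divided by the square root of F. The median log2FC of all genes in KO_PBS vs WT_PBS was -0.01 with TMM and 0.139 with library totals alone, and the calls split into 1112 higher and 766 lower with TMM and 1942 and 260 without. Every change is thus given on the TMM scale. Log2 CPM for correlations used a prior count of 2. The scripts were tested on simulated data.

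Samples were grouped by their titles. Nothing in the labels says that replicates are separate animals, so P values measure the spread between samples, which may be technical. Replicates of a group differed by a mean chi-square of at least 20.4 per gene with at least 10 counts (about 1 under sampling noise), so no library appeared to be a copy of another. The longest run of bases shared by transcripts of 2 pumps was 53.

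The members and lists were chosen with earlier results of these data known. Named genes were the 5 members, the pump micropeptides, up to 4 genes per list with the smallest P in KO_PBS vs WT_PBS, Bin1 and Dnm2, and the 3 genes most correlated with each member, and any gene named outside this rule was chosen after its values were seen. Alternatives were DESeq2 1.42.0, limma-voom (limma 3.58.1), other scalings, no filter, the compared groups alone, a replicate block and each sample left out. A gene that was in the list of calcium buffers and kinases is not reported here and was left out of its counts.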

Additional observations from a re-analysis of the deposited data

Results flagged for a closer look

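The effect of ASO1 on Sln differed between the genotypes by the interaction term, at -3.55 on the log2 scale. Sln was lower in KO_ASO than in KO_PBS in 4 of 4 samples, while WT_ASO and WT_PBS overlapped. The interaction did not pass in 10 of the alternatives tried, whose values are given with the dependence on the processing.

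The Pln level of KO_PBS replicate 4, at 2.66 CPM, stood apart from the other samples of its group, which lay between 1.95 and 2.04 CPM. This was found in 20 checks of a member in a group of 4 samples, where chance flags about 1 in 20.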

How the results depend on the processing

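Over 30 member results and 685 alternatives, 646 kept direction and side of the threshold, 19 lost the call, 3 gained one and 17 changed sign without a call in either fit. Of these 17, Pln in KO_ASO vs KO_PBS (0.0035) was -0.096 with library totals alone, -0.015 with upper-quartile scaling and -0.0056 without the filter. The others came from leaving out 1 sample, which gave -0.067 to 0.11 for Pln and -0.052 to 0.062 for Atp2a3 in KO_ASO vs KO_PBS, -0.16 to 0.36 for Pln and -0.032 to 0.16 for Atp2a3 in KO_ASO vs WT_ASO, and interactions of -0.33 to 0.070 for Atp2a2 and -0.17 to 0.0016 for Atp2a1. For Atp2a1 in KO_PBS vs WT_PBS the log2FC was -0.27 with library totals alone and -0.42 with the compared groups alone, both without a call, and -0.49 to -0.32 with 1 sample left out. The Sln interaction was -3.55 without the filter and -3.35 in limma-voom, both without a call, and -3.81 to -3.03 with 1 sample left out. DESeq2 called Sln in KO_ASO vs WT_PBS (1.80) and, in KO_ASO vs WT_ASO, Atp2a2 (0.70) and Atp2a1 (-0.50). The cause was not tested.

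Counts of called genes moved too. KO_ASO vs KO_PBS had 544, and 1056 in DESeq2, 1186 in limma-voom and 300 with the compared groups alone. WT_ASO vs WT_PBS had 1, and 33 in DESeq2 and 3 without the filter. KO_ASO vs WT_PBS had 6, and 95 in DESeq2. KO_ASO vs WT_ASO had 11, and 419 in DESeq2, 2 in limma-voom and 2 with the compared groups alone. The interaction had 86, and 378 in DESeq2. With 1 sample left out the counts ran from 997 to 2137 for KO_PBS vs WT_PBS, 208 to 831 for KO_ASO vs KO_PBS, 1 to 4 for WT_ASO vs WT_PBS, 4 to 11 for KO_ASO vs WT_PBS, 2 to 19 for KO_ASO vs WT_ASO and 23 to 102 for the interaction.

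Same-numbered samples correlated at -0.0777 to 0.435 over 24 pairs, of which 11 were over 0.1. In 15 of the 24 the own number correlated best among the 4 samples of the other group, which is a hint of shared numbering. This held for all 4 samples of WT_PBS set against WT_ASO. The labels do not say what a number marks and no 2 groups had all 4 pairs over 0.1, the condition set for pairing, so the fit without the block is given as the main one. With the replicate block the counts were 2 for WT_ASO vs WT_PBS, 8 for KO_ASO vs WT_PBS, 44 for KO_ASO vs WT_ASO, 126 for the interaction, 752 for KO_ASO vs KO_PBS and 2322 for KO_PBS vs WT_PBS, and no member's call changed. Low counts limit Sln in wild-type muscle and Pln.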
